A study of Mus musculus with 8 samples.

Results

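The genes that copy the genome and supply its deoxynucleotides were followed by RNA-seq through diapause, the hormonally maintained arrest of the mouse blastocyst, and into the post-implantation epiblast. The 51 members were taken by gene symbol from a list of 10 roles, from origin recognition to chromatin assembly, out of 38924 genes in the deposited table. All 51 passed the filter on low values that left 17698 genes for testing.

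All embryos were of strain C57BL/6 and the labels give their sex as female. The diapaused inner cell mass (dICM, 3 libraries) came from blastocysts whose mothers received tamoxifen by intraperitoneal injection and 0.5 mg of Depo Provera, a long-acting progestin, under the skin on day 3.5, and which were collected 5 days later. The epiblast (Epi, 2 libraries) came from post-implantation embryos at day 6.5, and the inner cell mass (ICM, 3 libraries) from blastocysts at day 3.5, both with no diapause hormones. Blastocysts of both kinds came from superovulated females. About 50 embryos were pooled per library, the outer trophectoderm of the blastocysts was lysed with antibody and complement, and the RNA was amplified with the WT-Ovation Pico kit before sequencing. Diapause, the hormone treatment, the longer stay in the uterus and the make-up of the tissue cannot be told apart in dICM, and p-values measure the spread between pools. In comparisons with Epi, stage and the make-up of the tissue cannot be told apart. Nor can the superovulation and antibody lysis, which are described for blastocysts only. In bulk RNA, fewer cells of a type and less RNA per cell cannot be told apart either.

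DNA replication is prepared in G1, when the origin recognition complex, Cdc6 and Cdt1 load the ring-shaped MCM helicase onto DNA, and geminin blocks further loading once S phase has begun. The kinase Cdc7 with Dbf4 then recruits Cdc45 and the GINS complex to each ring, and polymerases, the sliding clamp PCNA and flap and ligase enzymes follow the opened fork. Deoxynucleotides come chiefly from ribonucleotide reductase, and many genes of the whole set are known targets of E2F transcription factors.

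Where the members' promoters carry E2F letters is shown here for genes whose levels differed between the stages. Windows from RefSeq (build GRCm38.p6, 250 bases before to 50 after a start site) were found for 43 of 51 members, 52 windows in all. They were searched on both strands for TTTCCCGC, TTTGGCGC or TTTCGCGC, and 15 of the 52 windows (28.8%) held at least 1 of them, against 606 of 32851 windows (1.84%) of all genes. All 15 windows belonged to different members, among them 4 of the 5 MCM genes with a window and both licensing factors with a window (Cdc6 and Cdt1), while 0 of 5 nucleotide supply genes and 0 of 3 genes of the single-strand binding complex had a match. The letters CCAAT, read by NF-Y, stood in 50.0% of members' windows and 37.4% of all windows. TTTGAA, the cell-cycle homology region of G2 genes, stood in 15.4% of members' windows and 17.9% of all windows. The files were made on build mm9, whose coordinates are not used here, and a match is a description of letters only. Below are the windows of Mcm7 (chr5:138171834-138172133, minus strand), Mcm6 (chr1:128359656-128359955, minus), Mcm3 (chr1:20820263-20820562, minus) and Rfc3 (chr5:151651159-151651458, minus), with E2F letters in capitals, and of Rrm2 (chr12:24708004-24708303, plus), the most changed nucleotide supply gene, which had no match. Mcm7 has another window, chr5:138171217-138171516 on the minus strand, with 0 matches, which is not printed. Each is written 5′ to 3′ along the gene.
Mcm7: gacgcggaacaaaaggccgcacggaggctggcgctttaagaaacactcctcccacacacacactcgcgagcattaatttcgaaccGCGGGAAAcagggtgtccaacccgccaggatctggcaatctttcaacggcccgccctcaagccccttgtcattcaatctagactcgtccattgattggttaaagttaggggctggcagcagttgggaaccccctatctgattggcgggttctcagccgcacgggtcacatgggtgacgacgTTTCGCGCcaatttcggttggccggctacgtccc
Mcm6: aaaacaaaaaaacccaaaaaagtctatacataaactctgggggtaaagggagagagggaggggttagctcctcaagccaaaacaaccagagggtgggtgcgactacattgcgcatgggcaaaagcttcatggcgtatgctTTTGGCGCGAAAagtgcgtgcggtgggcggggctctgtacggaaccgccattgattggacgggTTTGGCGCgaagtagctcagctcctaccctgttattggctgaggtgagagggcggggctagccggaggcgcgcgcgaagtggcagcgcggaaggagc
Mcm3: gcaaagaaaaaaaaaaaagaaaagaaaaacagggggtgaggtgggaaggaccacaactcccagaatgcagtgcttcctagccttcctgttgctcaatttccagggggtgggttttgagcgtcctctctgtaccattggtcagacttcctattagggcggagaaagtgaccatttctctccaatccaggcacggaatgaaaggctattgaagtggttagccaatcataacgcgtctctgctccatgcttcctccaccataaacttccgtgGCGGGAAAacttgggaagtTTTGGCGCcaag
Rfc3: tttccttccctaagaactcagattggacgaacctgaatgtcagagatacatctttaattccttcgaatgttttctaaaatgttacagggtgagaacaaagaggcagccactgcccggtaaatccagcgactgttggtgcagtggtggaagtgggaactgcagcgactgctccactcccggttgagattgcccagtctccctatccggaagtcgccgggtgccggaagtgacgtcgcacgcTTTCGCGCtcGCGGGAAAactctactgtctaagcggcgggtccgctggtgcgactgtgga
Rrm2: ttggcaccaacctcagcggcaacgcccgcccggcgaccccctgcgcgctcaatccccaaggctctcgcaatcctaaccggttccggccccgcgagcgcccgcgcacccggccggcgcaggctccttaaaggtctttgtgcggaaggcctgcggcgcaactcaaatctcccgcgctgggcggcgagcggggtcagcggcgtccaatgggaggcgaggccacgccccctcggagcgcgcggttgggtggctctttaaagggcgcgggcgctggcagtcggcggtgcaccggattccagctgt

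Mcm6 held 3 matches, starting 110, 106 and 47 bases before the start site, the first and second sharing bases. Mcm7 had matches beginning at base -165 and at base 17, Rfc3 at -10 and 1, and Mcm3 at 20 and 39, counted from the start site. Members with matches did not share a pattern of levels: Mcm7 was low in dICM and high in Epi, Mcm3 was high in Epi alone, and Rfc3 was low in dICM and also lower in Epi than in ICM without overlap. Of 7 windows of members called lower in dICM than in ICM, 2 (28.6%) held a match, near the 28.8% of all members' windows. For members called higher in Epi than in ICM it was 4 of 11 (36.4%). The 7 windows belong to 6 of the 8 members called lower in dICM, because Gmnn and Gins1 had no window. Mcm4, called in dICM against Epi, had none either. Cdc45, Rrm1, Rrm2, Dut, Pcna, Orc2, Orc6, Rfc1, Rpa1, Fen1 and Tk1, also called, had windows with 0 matches.

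The libraries matched their labels on marker genes. Summed levels of 6 post-implantation epiblast markers such as Fgf5 and Otx2 lay at 8.11 to 14.4 adjusted TPM in dICM, 297.8 to 609.9 in Epi and 24.7 to 38.2 in ICM, and 6 pluripotency markers such as Pou5f1 summed to 368.0 to 468.2 in dICM, 270.7 to 344.7 in Epi and 498.3 to 818.2 in ICM. Primitive endoderm is the other lineage of the inner cell mass. Its 18 markers summed to 2537 to 2902 in dICM, 99.5 to 104.3 in Epi, where 3 of the 18 lay below 0.1 in both libraries, and 842.9 to 1168 in ICM. Of 17 tested, 12 were higher and 2 lower in dICM than in ICM. Trophectoderm markers summed to 55.1 to 188.5 in dICM, 59.4 to 67.7 in Epi and 42.2 to 61.2 in ICM, with 1 of 9 tested higher in dICM than in ICM and 0 lower. The 188.5 was dICM replicate 3, and dICM replicates 1 and 2 had 55.1 and 56.6. Streak and mesoderm markers summed to 0.725 to 1.63 in dICM, 22.2 to 35.3 in Epi and 0.784 to 2.76 in ICM. All 3 of them tested were higher in Epi than in ICM. Of 6 blood and immune markers, 2 passed the filter, Laptm5 and Cd68, and both were higher in dICM than in ICM. In dICM, Laptm5 stood at 53.2, 20.8 and 21.5 and Cd68 at 80.6, 29.6 and 25.3. Ptprc, Lyz2, Hba-a1 and Csf1r did not pass, with highest dICM values of 0.399, 0.0013, 3.30 and 0.0204. The list, with 2 of 6 below 0.1 in all dICM libraries, summed to 47.3 to 133.9 in dICM, 2.42 to 4.07 in Epi and 4.99 to 10.1 in ICM. The part of these cells in the results below was not tested.

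Adjusted TPM is the authors' name for the deposited values. Differences are given on the log2(adjusted TPM + 1) scale with their standard error (SE), from limma's moderated test over all genes with Benjamini-Hochberg adjustment, and a gene counts as called at an adjusted p under 0.05. The 3 comparisons share libraries. In dICM against ICM, 0 members were higher and 8 were lower (Gmnn, Mcm7, Cdc45, Gins1, Rfc3, Rrm1, Rrm2 and Dut), which is 15.7% of the 51. Of all genes tested 13.3% were called, 7.52% higher and 5.81% lower. In Epi against ICM, 9 members were higher and 3 lower, 23.5% of the 51, against 30.1% of all genes called, 16.7% higher and 13.3% lower. In dICM against Epi, 1 member was higher and 14 were lower, 29.4% of the 51, against 34.5% of all genes called, 16.0% higher and 18.6% lower.

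The members' share of calls was thus near that of all genes in dICM against ICM and below it in both other comparisons, and it was the direction that leaned. The median member difference was -0.42 in dICM against ICM, where the median over all genes tested was 0.0, and 42 of 51 members (82.4%) had a negative difference, against 49.6% of all genes. In 18 members every dICM library lay below every ICM library, and in 2 members above (background 14.4% and 16.4% of all genes). In dICM against Epi the median was -0.45 against -0.11 over all genes, with 26 members lower and 6 higher without overlap (background 34.1% and 27.3%). In Epi against ICM the median was -0.05 against 0.14, with 13 higher and 16 lower without overlap (background 33.9% and 25.0%). By group mean of adjusted TPM, not logged, dICM was the lowest of the 3 groups for 32 members, Epi for 14 and ICM for 5. ICM was the highest for 25 members, Epi for 20 and dICM for 6. The same counts over all genes were not made, so these have no background beside them.

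**Figure D1:**
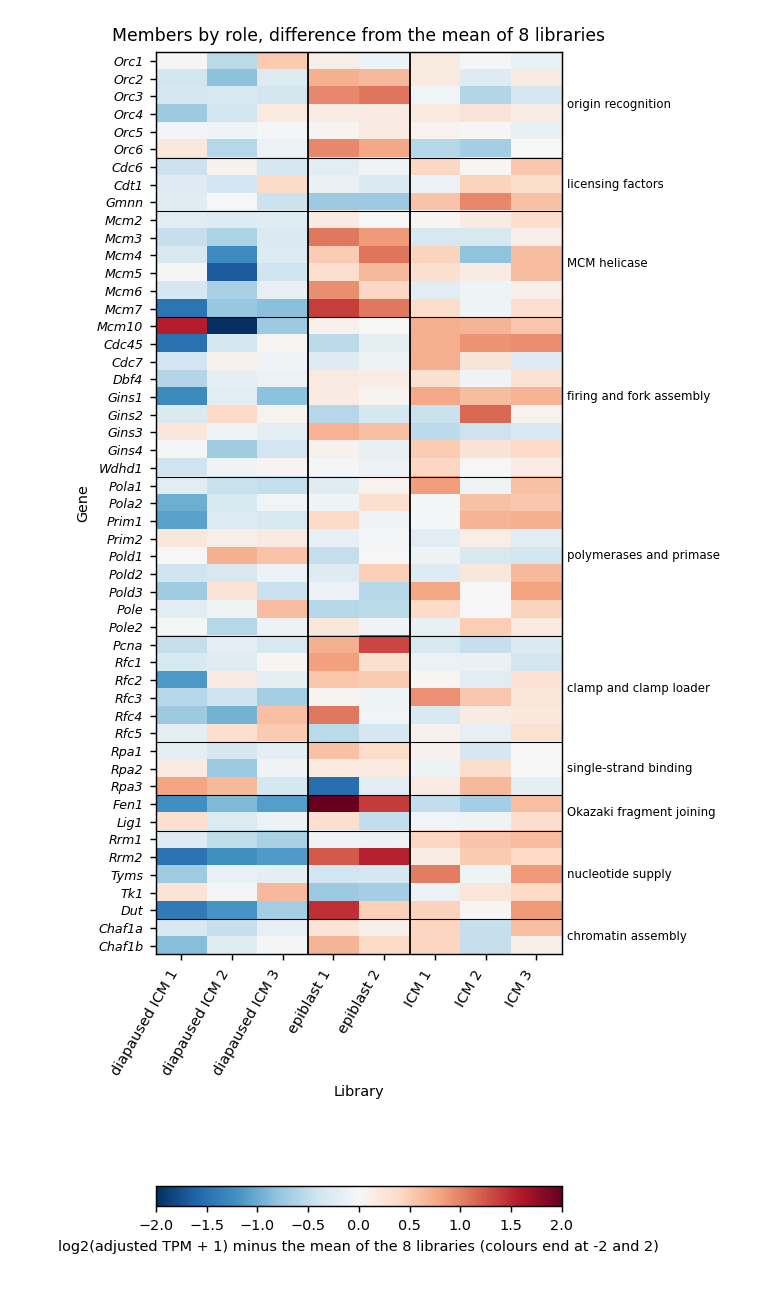
Level of each of the 51 members (rows, grouped by role) in each of the 8 libraries (columns), as log2(adjusted TPM + 1) minus the gene's mean over the 8 libraries. The dICM columns are mostly blue and the Epi columns are red for a minority of genes, with Rrm2, Mcm7, Fen1 and Dut blue in dICM and red in Epi.

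The number of members called depended on the libraries and the scaling used. Without ICM replicate 1, 3 members were called in dICM against ICM in place of 8, and without ICM replicate 3 there were 5, while rescaling the libraries without their most abundant genes gave 13 calls, all lower. Without Epi replicate 1, 4 members were called in Epi against ICM and 7 in dICM against Epi. Without Epi replicate 2, 7 members were called in Epi against ICM. Under the same rescaling the split of Epi against ICM was 6 higher and 7 lower, in place of 9 and 3.

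**Figure D2:**
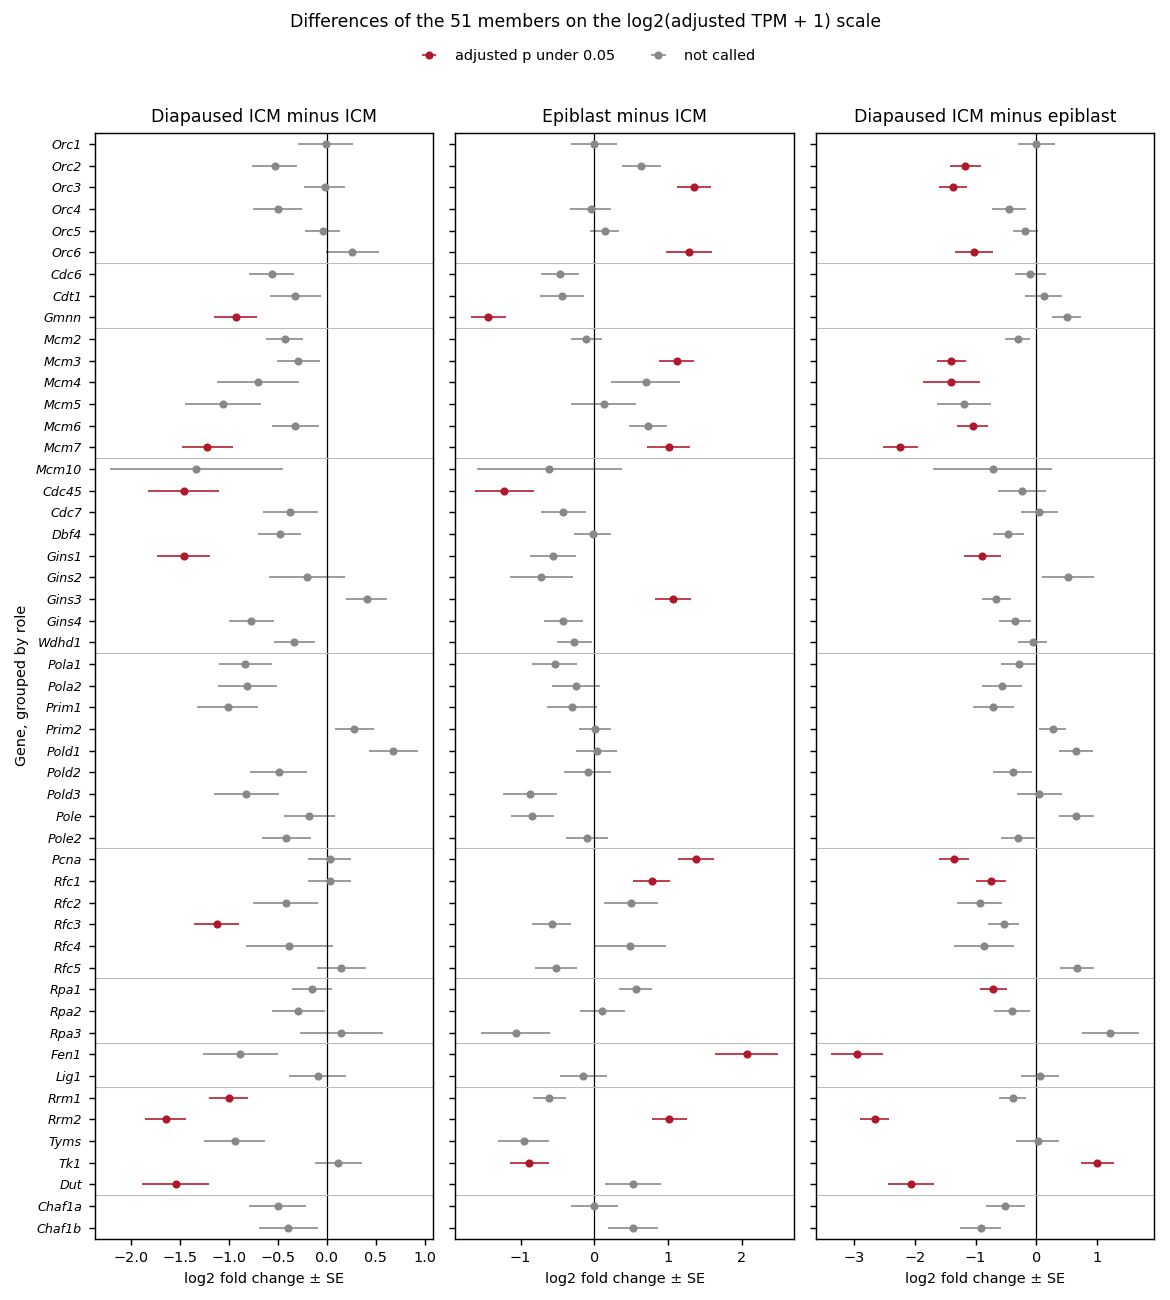
Difference of each member with its standard error in dICM minus ICM (left), Epi minus ICM (middle) and dICM minus Epi (right), on the log2(adjusted TPM + 1) scale. Red points have an adjusted p under 0.05, and they number 8, 12 and 15.

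Among the 6 origin recognition genes, 0 were called between dICM and ICM, 2 were higher in Epi than in ICM and 3 were lower in dICM than in Epi. The last 2 counts are 33.3% and 50.0% of the 6, against 16.7% and 18.6% of all genes tested. Orc3, a core subunit of the complex, stood at 9.63, 9.80 and 9.46 adjusted TPM in dICM, 25.5 and 27.5 in Epi and 12.1, 7.99 and 9.62 in ICM. Both Epi libraries lay above all 6 others, while dICM and ICM overlapped. The Epi minus ICM difference was 1.35 ± 0.23 (SE, adjusted p = 0.0033) and the dICM minus Epi difference was -1.37 ± 0.23 (adjusted p = 0.0026). Orc6, the small subunit that works with MCM loading, had 16.4, 9.13 and 12.85 in dICM, 28.4 and 24.6 in Epi and 9.11, 8.38 and 14.0 in ICM. Again the Epi libraries were above the rest, by 1.29 ± 0.31 over ICM (adjusted p = 0.014), with dICM lower than Epi by a difference of -1.03 ± 0.31 (adjusted p = 0.031). Orc2, another core subunit, was at 10.7, 7.63 and 11.6 in dICM, 23.9 and 22.9 in Epi and 16.5, 11.7 and 16.3 in ICM, and was lower in dICM than in Epi (-1.17 ± 0.26, adjusted p = 0.0093). The dICM libraries all lay below the ICM libraries, by a difference that was not called (-0.53 ± 0.23, adjusted p = 0.18). Orc1, Orc4 and Orc5 were called in no comparison, and Orc5 stayed between 5.91 and 7.70 in all 8 libraries. Orc6 lost its calls without either Epi library (adjusted p = 0.063 to 0.11 against ICM), and against Epi also without dICM replicate 2 or 3 (0.062 to 0.16) or with no filter (0.079), and Orc2 without either Epi library (0.0509 to 0.065).

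Of the 3 licensing factors, geminin was lower in both dICM and Epi than in ICM. Gmnn, the inhibitor of Cdt1, had 32.6, 38.9 and 28.5 in dICM, 22.9 and 23.05 in Epi and 58.2, 76.2 and 58.8 in ICM. The 3 groups did not overlap, with ICM highest and Epi lowest. The difference was -0.93 ± 0.22 in dICM minus ICM (adjusted p = 0.023) and -1.44 ± 0.24 in Epi minus ICM (adjusted p = 0.0031), while dICM and Epi were not called apart (0.50 ± 0.24, adjusted p = 0.13). The dICM call was lost without ICM replicate 1 or 2 or dICM replicate 1 or 3 (adjusted p = 0.053 to 0.067). The loaders Cdc6 and Cdt1 were called in no comparison: Cdt1 averaged 7.89 ± 2.69 in dICM, 6.94 ± 0.636 in Epi and 9.93 ± 2.17 in ICM (SD, n = 3, 2 and 3), and Cdc6 averaged 10.5 ± 2.35 in dICM, 11.2 ± 0.874 in Epi and 16.0 ± 3.02 in ICM. The ratio of Gmnn to Cdt1 was 4.90, 6.42 and 2.59 in dICM, 3.10 and 3.55 in Epi and 7.82, 6.65 and 5.40 in ICM, so Epi lay below ICM and dICM overlapped both.

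The 6 subunits of the MCM helicase were all lower in dICM than in Epi without overlap between libraries, and 4 of them were called. Of all genes tested, 34.1% were lower without overlap in this comparison and 18.6% were called lower. Summed over the 6, the level was 93.0 to 135.7 in dICM, 327.8 to 336.7 in Epi and 153.9 to 240.7 in ICM. Against ICM, 1 of 6 was called lower in dICM, and 2 of 6 were called higher in Epi. The shares over all genes were 5.81% and 16.7%.

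Mcm7 had 16.5, 27.4 and 25.8 in dICM, 124.8 and 98.5 in Epi and 61.2, 44.0 and 59.6 in ICM. The groups did not overlap, and dICM was lowest and Epi highest. The difference was -1.22 ± 0.26 in dICM minus ICM (adjusted p = 0.016), 1.01 ± 0.29 in Epi minus ICM (adjusted p = 0.03) and -2.24 ± 0.29 in dICM minus Epi (adjusted p = 7.1e-04). The first call was lost without ICM replicate 1 or 3 (adjusted p = 0.057 to 0.064) and in a fit with no filter on level (0.0539). The second was lost without any 1 of the ICM or Epi libraries (0.0518 to 0.18), with no filter (0.066) and on rescaling without abundant genes (0.06), and the third was kept under every alternative tried. The Mcm7 gene shares exon bases on the opposite strand with Ap4m1 (longest shared stretch 247 bases) and Cops6 (64 bases). On the same strand, stretches of 84 and 88 bases are shared with the microRNA genes Mir25 and Mir93. Cops6 stood at 33.5, 40.0 and 57.4 in dICM, 33.9 and 38.4 in Epi and 71.0, 73.6 and 67.9 in ICM, so that dICM lay below ICM as for Mcm7 and Epi lay below ICM, unlike Mcm7. Ap4m1 stood at 7.79, 7.54 and 6.08 in dICM, 1.51 and 2.06 in Epi and 5.33, 6.82 and 5.64 in ICM. The part of shared reads in the Mcm7 values was not tested.

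Mcm3 had 12.1, 10.6 and 13.8 in dICM, 36.2 and 31.3 in Epi and 13.5, 13.4 and 18.6 in ICM, so that only the Epi libraries stood apart. It was higher in Epi than in ICM by 1.12 ± 0.24 (adjusted p = 0.0098), a call lost without Epi replicate 1 (0.079), and lower in dICM than in Epi (-1.40 ± 0.24, adjusted p = 0.003). Mcm6 followed Mcm3, with 25.7, 20.6 and 29.3 in dICM, 63.15 and 43.9 in Epi and 28.0, 30.9 and 35.6 in ICM, and was called in dICM against Epi alone (-1.05 ± 0.26, adjusted p = 0.016; 0.12 without Epi replicate 1). Mcm4 was at 40.2, 20.6 and 41.7 in dICM, 71.9 and 106.6 in Epi and 69.1, 28.5 and 77.7 in ICM. Its dICM minus Epi difference of -1.40 ± 0.47 passed narrowly (adjusted p = 0.048) and was lost without ICM replicate 1 or any 1 of the dICM or Epi libraries (0.06 to 0.25), or with no filter (0.17). ICM replicate 2 and dICM replicate 2 were the low libraries of their groups for Mcm4.

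Mcm2 and Mcm5 were called in no comparison. Mcm5 had 24.3, 7.17 and 18.5 in dICM, 31.4 and 39.45 in Epi and 31.25, 27.8 and 38.4 in ICM, with dICM below both other groups in all libraries (-1.06 ± 0.39 against ICM, adjusted p = 0.11, and -1.19 ± 0.44 against Epi, adjusted p = 0.063). Mcm2 was the lowest of the 6 subunits in each of the 8 libraries and varied little, at 6.66 to 6.87 in dICM, 8.05 to 9.23 in Epi and 8.41 to 10.7 in ICM. On the adjusted TPM scale, which by its name is per transcript length, the highest subunit exceeded the lowest by 4.11 to 6.19 times in dICM, 13.3 to 13.5 times in Epi and 4.77 to 8.22 times in ICM. By this ratio, which in every library was taken over Mcm2, transcripts of the complex, whose subunits assemble in equal number, were least even in Epi. Evenness among the subunits other than Mcm2 was not tested.

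Of 9 genes that turn the loaded ring into a moving fork, Cdc45 and Gins1 were lower in dICM than in ICM. That is 22.2% of the 9, against 5.81% of all genes tested. In Epi against ICM, Gins3 was higher and Cdc45 lower, 11.1% each, against 16.7% and 13.3% of all genes. Gins1 was also lower in dICM than in Epi (11.1%, against 18.6% of all genes). Gins1, a subunit of the GINS complex, had 7.58, 16.9 and 10.8 in dICM, 22.3 and 20.9 in Epi and 34.1, 30.7 and 32.5 in ICM. The groups did not overlap, with dICM lowest and ICM highest. The dICM minus ICM difference of -1.46 ± 0.27 (adjusted p = 0.0093) kept its call under every alternative. The dICM minus Epi difference of -0.89 ± 0.31 was at the threshold (adjusted p = 0.0498) and was lost when any library other than dICM replicate 2 was left out (0.058 to 0.19), with no filter (0.11), on rescaling (0.056) and in a fit of dICM and Epi alone (0.094). Cdc45, the helicase cofactor, was at 0.461, 2.215 and 3.195 in dICM, 1.84 and 2.575 in Epi and 5.79, 6.64 and 6.87 in ICM. The ICM libraries stood above all others, by differences of -1.46 ± 0.36 in dICM minus ICM (adjusted p = 0.029) and -1.22 ± 0.40 in Epi minus ICM (adjusted p = 0.048). The first call was lost when any ICM or Epi library was left out (0.059 to 0.084) and the second when any ICM or Epi library or dICM replicate 2 was (0.059 to 0.24). Both were also lost with no filter (0.14 and 0.16) and with a pseudocount of 0.1 (0.0548 and 0.11), and the first in a fit of dICM and ICM alone (0.061). Cdc45 shares exon bases on the opposite strand with Ufd1 (longest shared stretch 164 bases). Ufd1 was at 165.5, 139.1 and 251.0 in dICM, 37.8 and 37.6 in Epi and 312.0, 85.4 and 237.9 in ICM.

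Gins3 ran the other way at low level, with 1.76, 1.24 and 1.10 in dICM, 2.84 and 2.60 in Epi and 0.643, 0.790 and 0.8895 in ICM. Both dICM and Epi lay above ICM without overlap, and the Epi minus ICM difference of 1.07 ± 0.24 was called (adjusted p = 0.011; 0.07 without Epi replicate 1), while that of dICM was not (0.41 ± 0.21, adjusted p = 0.26). GINS is built from 1 copy of each of its 4 subunits, and their transcripts did not move together: Gins4 had a dICM minus ICM difference of -0.77 ± 0.23 that was not called (adjusted p = 0.06), and that of Gins2 was -0.20 ± 0.39. The kinase pair Cdc7 and Dbf4 and the adaptor Wdhd1 were called in no comparison. Mcm10, which activates the helicase, had the widest spread of any member in dICM, at 65.15, 2.005 and 12.5 adjusted TPM, against 22.55 and 21.4 in Epi and 35.8, 34.7 and 31.8 in ICM. A single dICM library was the highest of all 8 and another the lowest, and no difference was called (dICM minus ICM -1.33 ± 0.88, adjusted p = 0.38). Without dICM replicate 1, the high one, Mcm10 was called lower in dICM than in ICM and than in Epi.

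None of the 9 polymerase and primase genes was called in any comparison, although 7 of 9 had a negative difference in dICM against ICM. Of all genes tested, 49.6% had a negative difference there. Prim1, the catalytic primase subunit that makes the RNA primer, had the smallest p, with 5.51, 10.3 and 9.92 in dICM, 16.75 and 12.1 in Epi and 12.4, 20.8 and 21.4 in ICM. Every dICM library lay below every Epi and ICM library, with a dICM minus ICM difference of -1.01 ± 0.31 (adjusted p = 0.062). Its partner Prim2, the regulatory subunit, did not share this, at 2.82, 2.55 and 2.71 in dICM, 1.93 and 2.18 in Epi and 1.79, 2.58 and 1.81 in ICM. Pold1, the catalytic subunit of polymerase delta, had a positive difference in dICM against ICM of 0.68 ± 0.25 (adjusted p = 0.11) while Pold3, an accessory subunit, had a negative one of -0.82 ± 0.33 (adjusted p = 0.15).

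Of the 6 clamp and clamp loader genes, Pcna and Rfc1 were higher in Epi than in ICM and lower in dICM than in Epi. These are 33.3% of the 6 each time, against 16.7% and 18.6% of all genes tested. Rfc3 was lower in dICM than in ICM (16.7% of the 6, against 5.81% of all genes). Pcna, the sliding clamp, was the most abundant member, at 268.7, 329.1 and 300.5 in dICM, 617.5 and 948.3 in Epi and 301.6, 271.0 and 306.0 in ICM. Both Epi libraries stood above all others and dICM overlapped ICM, with differences of 1.38 ± 0.25 in Epi minus ICM (adjusted p = 0.0041), -1.36 ± 0.25 in dICM minus Epi (adjusted p = 0.0039) and 0.03 in dICM minus ICM (adjusted p = 0.96). Both calls held under every alternative. The pseudogene Pcna-ps2 was listed at 123.4, 158.3 and 145.5 in dICM, 299.8 and 269.4 in Epi and 123.9, 98.8 and 145.7 in ICM, a near copy with the same order of groups, so how reads were divided between it and Pcna is uncertain.

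Rfc3, a small subunit of the clamp loader, had 9.705, 10.9 and 8.915 in dICM, 15.6 and 13.9 in Epi and 29.1, 22.0 and 17.7 in ICM. The groups did not overlap, dICM being lowest, and the dICM minus ICM difference was -1.12 ± 0.23 (adjusted p = 0.014; 0.0526 without ICM replicate 1). Rfc1, the large subunit, was at 13.04, 13.7 and 16.8 in dICM, 29.9 and 20.8 in Epi and 15.0, 14.9 and 12.55 in ICM, so the Epi libraries alone stood apart. Its differences were 0.78 ± 0.25 in Epi minus ICM (adjusted p = 0.042) and -0.75 ± 0.25 in dICM minus Epi (adjusted p = 0.043). Both were lost under most alternatives, among them leaving out Epi replicate 1 (adjusted p = 0.25 in both), ICM replicate 1 or 3, or dICM replicate 1 or 2 (0.0511 to 0.11), and the first also without ICM replicate 2 (0.061). Fits with no filter, on rescaling or of the 2 groups alone did not call either (0.0526 to 0.15). Rfc2, Rfc4 and Rfc5 were called in no comparison.

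**Figure D3:**
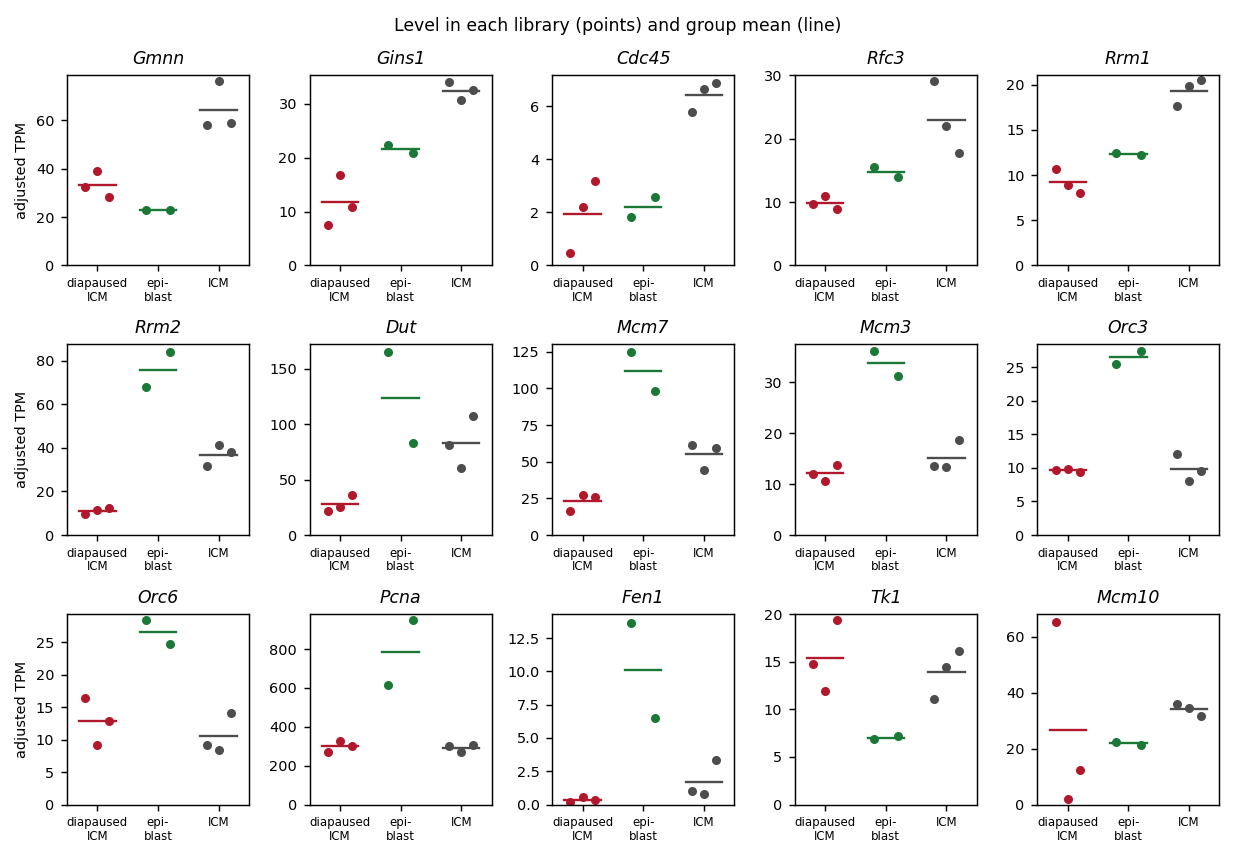
Adjusted TPM of 15 members in each library (points) with the group mean (line), for dICM (3 libraries), Epi (2) and ICM (3), each on its own axis from 0. Gins1, Rfc3, Rrm1 and Rrm2 in dICM lie below every ICM library, Pcna, Orc3 and Mcm3 are high in Epi alone, and Mcm10 is widely spread in dICM.

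Replication protein A coats the single strands at the fork. Rpa1, its large subunit, had 5.98, 5.27 and 5.94 in dICM, 10.8 and 9.22 in Epi and 7.405, 5.27 and 6.82 in ICM. It was lower in dICM than in Epi (-0.71 ± 0.22, adjusted p = 0.037), and that call was lost without ICM replicate 1 or any 1 of the dICM or Epi libraries (0.0512 to 0.18) and in a fit of dICM and Epi alone (0.0522). Rpa2 and Rpa3 were called in no comparison, and Rpa3 lay below every ICM library in Epi but overlapped between dICM and both other groups (47.4, 42.9 and 20.8 in dICM, 8.82 and 23.1 in Epi, 30.2, 42.9 and 23.6 in ICM).

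Fen1, the flap endonuclease that trims Okazaki fragments, was the member with the largest difference of the set. It was listed at 0.217, 0.543 and 0.323 in dICM, 13.7 and 6.47 in Epi and 1.02, 0.765 and 3.32 in ICM, with no overlap between any groups and dICM lowest. Fen1 was higher in Epi than in ICM by 2.07 ± 0.43 (adjusted p = 0.0076; 0.09 without Epi replicate 1) and lower in dICM than in Epi (-2.95 ± 0.43, adjusted p = 0.0012), the second call holding under every alternative. The dICM minus ICM difference of -0.88 ± 0.38 was not called (adjusted p = 0.18). These levels are low for a gene that every dividing cell uses. Fen1 shares exon bases on the opposite strand with Gm10143 and Tmem258 (longest shared stretches 1909 and 75 bases). Gm10143 was listed at 1.15, 2.43 and 2.24 in dICM, 0.622 and 1.12 in Epi and 2.39, 2.79 and 1.76 in ICM. Tmem258 stood far above Fen1, at 231.0, 209.1 and 153.9 in dICM, 200.6 and 227.4 in Epi and 288.2, 182.8 and 338.9 in ICM. The part of shared reads in the Fen1 values was not tested. The use of strand in counting is not known from the labels. Lig1, the ligase that seals the fragments, was at 96.7 to 146.6 in dICM, 82.4 to 148.3 in Epi and 109.9 to 148.5 in ICM and was called in no comparison.

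The 5 nucleotide supply genes held 3 of the 8 members called lower in dICM than in ICM. Of all genes tested, 5.81% were called lower in this comparison. The median difference of the 5 genes was -1.0, the lowest of the 10 roles, against 0.0 over all genes tested. The summed level of the 5 genes was 70.2 to 95.5 in dICM, 203.9 to 269.6 in Epi and 157.6 to 224.3 in ICM. Rrm2, the small subunit of ribonucleotide reductase that carries the radical and is made in S phase, had 9.59, 11.5 and 12.4 in dICM, 67.8 and 84.0 in Epi and 31.6, 41.4 and 37.9 in ICM. The 3 groups were well separated, dICM lowest and Epi highest. Rrm2 had the most negative dICM minus ICM difference of all members, -1.64 ± 0.21 (adjusted p = 0.0016), and a dICM minus Epi difference of -2.66 ± 0.24 (adjusted p = 1.2e-04), and both were called under every alternative. The Epi minus ICM difference was 1.02 ± 0.24 (adjusted p = 0.013), lost without Epi replicate 2 (0.089) and on rescaling without abundant genes (0.063).

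Rrm1, the large subunit that holds the active and regulatory sites, was at 10.7, 8.91 and 7.98 in dICM, 12.4 and 12.2 in Epi and 17.7, 19.9 and 20.5 in ICM. It too was lower in dICM than in ICM (-1.0 ± 0.20, adjusted p = 0.011, kept under every alternative), but its Epi libraries lay below the ICM libraries and not above them (-0.61, adjusted p = 0.064). The ratio of Rrm2 to Rrm1 was therefore 0.895, 1.29 and 1.55 in dICM, 5.46 and 6.89 in Epi and 1.79, 2.08 and 1.85 in ICM. No groups overlapped in this ratio, and an exact two-sided permutation test gave p = 0.1 in each of the 3 comparisons, the smallest p that these group sizes allow.

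Dut, which removes dUTP and so keeps uracil out of DNA, had 21.5, 25.6 and 36.0 in dICM, 165.1 and 82.8 in Epi and 81.6, 60.3 and 107.5 in ICM. The dICM libraries lay below all 5 others, by -1.54 ± 0.34 against ICM (adjusted p = 0.018) and -2.07 ± 0.38 against Epi (adjusted p = 0.0038). The first call was lost without ICM replicate 1 or 3 or dICM replicate 1 or 2 (0.0534 to 0.064) and with no filter on level (0.089), and the second was kept under every alternative. Tk1, the thymidine salvage kinase of S phase, was the 1 member higher in dICM than in Epi. It had 14.8, 11.9 and 19.4 in dICM, 6.87 and 7.20 in Epi and 11.1, 14.5 and 16.2 in ICM, so that Epi lay below both other groups, with differences of 1.0 ± 0.27 in dICM minus Epi (adjusted p = 0.02) and -0.88 ± 0.27 in Epi minus ICM (adjusted p = 0.037). The first was lost without either Epi library or dICM replicate 3 (0.053 to 0.11) and the second without either Epi library or ICM replicate 2 or 3 (0.074 to 0.16) or with no filter (0.07). Tyms, which makes thymidylate by the de novo route, was called in no comparison (13.65, 20.8 and 19.8 in dICM, 17.4 and 17.65 in Epi, 47.4, 21.6 and 42.2 in ICM).

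The 2 large subunits of the chromatin assembly factor that places histones behind the fork were called in no comparison. Chaf1b, with the smallest p, had 2.88, 4.98 and 5.86 in dICM, 10.3 and 8.23 in Epi and 8.52, 4.04 and 6.54 in ICM. Every dICM library was below both Epi libraries (-0.92 ± 0.34, adjusted p = 0.064), and dICM overlapped ICM.

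Ratios within a library do not depend on its scale, and 6 pairs of partners, chosen after their values were seen, were compared in the 3 comparisons each, 18 tests in all. Beside Rrm2 to Rrm1, the ratio of Prim1 to Prim2 set dICM apart, at 1.95, 4.03 and 3.66 in dICM, 8.69 and 5.53 in Epi and 6.91, 8.06 and 11.8 in ICM (exact two-sided permutation p = 0.1 in dICM against either group, and 0.225 after adjustment over the 18 tests, as for Rrm2 to Rrm1). Dbf4 to Cdc7 and Pola1 to Pola2 overlapped between dICM and ICM and between Epi and ICM, and Chaf1a to Chaf1b overlapped between dICM and ICM. Without overlap and with the same p of 0.1, Dbf4 to Cdc7 was lower in dICM than in Epi, and Gmnn to Cdt1 and Chaf1a to Chaf1b were lower in Epi than in ICM (0.225 each after adjustment).

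**Figure D4:**
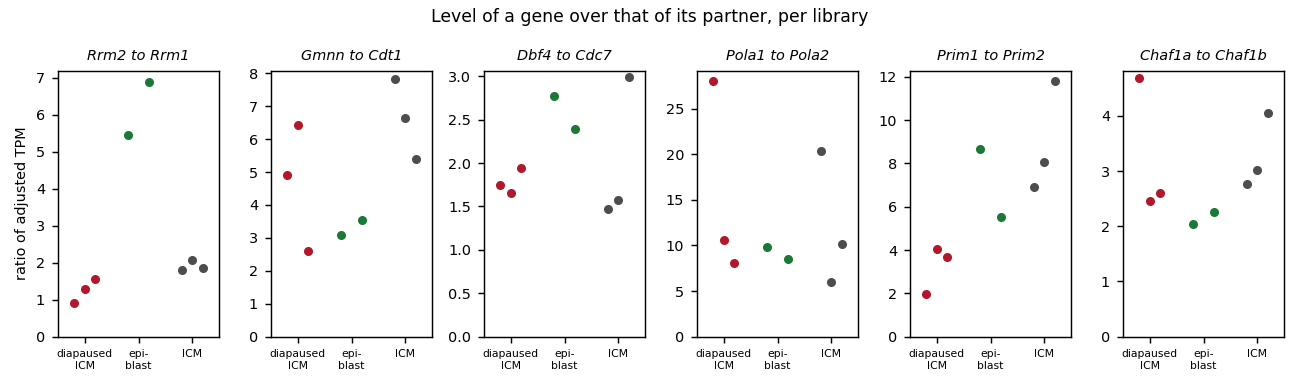
Ratio of the adjusted TPM of 6 pairs of partner genes in each library, for dICM (3 libraries), Epi (2) and ICM (3), with axes from 0. The Rrm2 to Rrm1 ratio is 0.895 to 1.55 in dICM, 5.46 to 6.89 in Epi and 1.79 to 2.08 in ICM, with no overlap, and the Prim1 to Prim2 ratio is lowest in dICM.

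Of 34 further fork and origin genes tested, 1 was higher and 3 were lower in dICM than in ICM, 7 were higher and 5 lower in Epi than in ICM, and 1 was higher and 11 lower in dICM than in Epi. These are shares of 11.8%, 35.3% and 35.3%, near the 13.3%, 30.1% and 34.5% of all genes called in the same comparisons. Of 27 further nucleotide synthesis genes, 1 was higher and 2 lower in dICM than in ICM, 6 higher and 5 lower in Epi than in ICM, and 1 higher and 5 lower in dICM than in Epi (11.1%, 40.7% and 22.2% called). The histone-fold subunit Pole3 of polymerase epsilon averaged 31.2 ± 3.69 in dICM and 94.1 ± 8.39 in ICM (SD, n = 3 each; -1.56 ± 0.22, adjusted p = 0.0021), and Ticrr, which helps load Cdc45, averaged 2.15 ± 1.13 in dICM and 8.39 ± 0.784 in ICM (-1.64 ± 0.28, adjusted p = 0.0058). The helicase gene Pif1 was lower too (-1.21 ± 0.25, adjusted p = 0.015). In nucleotide synthesis, the nucleoside diphosphate kinase gene Nme1 averaged 45.3 ± 8.0 in dICM and 167.6 ± 45.8 in ICM (-1.85 ± 0.25, adjusted p = 0.002), and the purine enzyme gene Pfas was lower in dICM than in ICM (-1.20 ± 0.23, adjusted p = 0.0092). Another purine enzyme gene, Paics, was higher in dICM, at 324.6 ± 20.1 against 172.9 ± 23.8 in ICM (0.91 ± 0.21, adjusted p = 0.022).

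Between Epi and ICM, the gene listed as 2810417H13Rik (Pclaf in GENCODE M21 by its gene ID), whose product binds PCNA, stood out. It had 4.98, 2.90 and 2.24 in dICM, 66.3 and 70.9 in Epi and 1.78, 1.26 and 2.15 in ICM, and was higher in Epi than in ICM by 4.68 ± 0.29 (adjusted p = 2.0e-05). The histone chaperone Asf1a (1.60 ± 0.22, adjusted p = 0.0011), the topoisomerase Top1 (2.31 ± 0.36, adjusted p = 0.002) and the histone-binding Rbbp4 (1.68 ± 0.28, adjusted p = 0.003) were higher in Epi than in ICM, and Pole3 was lower (-1.54 ± 0.24, adjusted p = 0.0022). In dICM against Epi, 2810417H13Rik, Top1, Pfas, Tipin (a fork protection gene) and Asf1a were lower in dICM, by differences between -4.04 and -1.31.

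For scale, a list of 31 tested G2 and mitosis genes had 0 higher and 14 lower in dICM than in ICM (median -1.05), 8 higher and 2 lower in Epi than in ICM (median 0.20), and 1 higher and 21 lower in dICM than in Epi (median -1.30). The called shares were 45.2%, 32.3% and 71.0%, against 13.3%, 30.1% and 34.5% of all genes in the same comparisons. The replication members' medians were -0.42 in dICM minus ICM, -0.05 in Epi minus ICM and -0.45 in dICM minus Epi. Whether the lists differ from each other was not tested.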

How the data were processed

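RNA-seq values of 8 libraries (3 dICM, 2 Epi, 3 ICM) were used as the authors deposited them: a signal per gene whose column names read adjusted TPM. Column sums ran from 720674 to 1179026, so the values were treated as a signal, although TPM had been planned for, and the planned test on log2(value + 1) was kept. Bowtie 0.12.5, DESeq (no version) and mm9 appear in the submitters' processing notes, without roles. Neither these notes nor the labels name the quantifier, annotation, use of strand or kind of adjustment. Depth is unknown, so no counting interval is given. Table columns that belong to no sample numbered 0.

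Where a symbol recurred, the line of highest mean was used. Genes reaching 1 in 2 or more libraries (17698 of 38924) were fitted with limma 3.58.1 in R 4.3.3, with a mean per group, a variance trend (residual df 5, prior df 3.97), two-sided moderated tests and Benjamini-Hochberg adjustment over all genes tested. The scale understates changes of low genes. The fit was tested on simulated data. Alternatives were a pseudocount of 0.1, no filter, a filter of 5, quantile normalization, rescaling without 75 abundant or mitochondrial genes, a fit of the 2 groups alone, a replicate block and leaving out each library. Exon overlaps and pseudogene names came from GENCODE M21, and an overlap is the longest stretch shared by a single pair of exons. Among other called members, Orc2 overlaps Nif3l1 (686 bases), Orc6 Vps35 (171) and Tk1 Afmid (83) on the opposite strand. Rpa1 overlaps Gm47300 (44) on the same strand. The part of shared reads in their values was not tested.

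The members, lists and ratios were chosen with earlier results of these data known. Values in every library are given for members past the threshold in any comparison or, in a role with none, for the member of smallest p. Of other pathway genes, up to 6 of smallest adjusted p per comparison are named. A gene that this rule would name is not reported here.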

Additional observations from a re-analysis of the deposited data

How the results depend on the processing

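No called member changed sign under any alternative, and 3 of 8 calls in dICM against ICM, 3 of 12 in Epi against ICM and 7 of 15 in dICM against Epi were kept under every one. Of the members, 5 were called in dICM against ICM with no filter and 13 on rescaling without abundant genes, in place of 8. Rescaling moved the median of all genes from 0.0 to -0.134 in dICM against ICM and from 0.14 to 0.004 in Epi against ICM, and left 1035 of 2454 calls higher in the first and 1995 of 4686 in the second, in place of 1331 of 2360 and 2963 of 5324. With no filter, 1278 genes were called in dICM against ICM. Leaving out 1 library gave 3 to 9 members and 1402 to 2141 genes in dICM against ICM, 4 to 13 members and 2008 to 5205 genes in Epi against ICM, and 7 to 15 members and 2698 to 6315 genes in dICM against Epi. The lowest counts came without ICM replicate 1 in the first and without Epi replicate 1 in the other comparisons. ICM replicate 3 lowered the first to 5 members and 1571 genes when left out. Epi replicate 2 lowered the second to 7 members and 2843 genes and the third to 3367 genes. The labels do not say whether replicate numbers pair the samples, and the values do not settle it. Same-numbered ICM and dICM libraries had correlations of deviations of 0.017, 0.103 and 0.131, and different-numbered ones ran from -0.148 to 0.033. Same-numbered correlations with Epi ran from -0.064 to 0.033. With a replicate block, 9, 9 and 14 members were called. The block ended the calls of Mcm7, Cdc45, Rfc1 and Tk1 in Epi against ICM (adjusted p = 0.0529 to 0.076) and of Gins1 and Rfc1 in dICM against Epi (0.09 and 0.076), and added Pola2 in dICM against ICM and Rpa3 in both others. Gins3 was not tested under the filter of 5. With 2 Epi libraries, leaving 1 out assumes that the other varies like the other groups.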

Other observations

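Of 24 tested regulators of entry into S phase, 2 were higher and 1 was lower in dICM than in ICM, 7 were higher and 1 lower in Epi than in ICM, and 2 were higher and 6 lower in dICM than in Epi. These shares of 12.5%, 33.3% and 33.3% are near the 13.3%, 30.1% and 34.5% of all genes called in the same comparisons, and the genes named here were chosen after their values were seen. Ccnd2, a D-type cyclin, had 4.15, 3.70 and 5.28 adjusted TPM in dICM, 5.17 and 5.69 in Epi and 0.115, 0.198 and 0.124 in ICM, and was higher in dICM than in ICM by 2.22 ± 0.20 (limma, adjusted p = 2.4e-04). The dICM and Epi libraries overlapped and all lay above ICM. Tfdp2, an E2F partner, was also higher in dICM than in ICM (0.91 ± 0.20, adjusted p = 0.02). Ccne1, the cyclin that acts at the start of S phase, had 0.869, 1.20 and 1.15 in dICM, 8.62 and 9.16 in Epi and 2.13, 2.57 and 2.88 in ICM. It was lower in dICM than in ICM (-0.76 ± 0.19, adjusted p = 0.03) and than in Epi (-2.26 ± 0.21, adjusted p = 1.7e-04), and the groups did not overlap. The 7 genes higher in Epi than in ICM were Ccnd1 (3.73 ± 0.54, adjusted p = 0.0015), Ccnd2, E2f3 (1.90 ± 0.35, adjusted p = 0.0048), Ccne1, Cdkn1c, Cdk6 and Tfdp2. E2f1 was the 1 gene lower in Epi than in ICM (-1.17 ± 0.27, adjusted p = 0.012), at 8.40 and 10.4 in Epi and 18.0, 21.7 and 28.6 in ICM, with 11.6, 12.6 and 16.4 in dICM between them.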
